A study of Mus musculus with 6 samples.

Results

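The miR-34 and miR-449 family groups microRNAs that share a seed or come from the same hairpins, and 8 of its mature strands were measured in the small intestinal mucosa of mice with and without Cdr1as. They were taken by name from the deposited table of 1831 miRNAs, in which all 8 were found: mmu-miR-34a-5p, mmu-miR-34b-5p, mmu-miR-34b-3p, mmu-miR-34c-5p, mmu-miR-34c-3p, mmu-miR-449a-5p, mmu-miR-449b, and mmu-miR-449c-5p. Cdr1as is a circular RNA with many binding sites for miR-7. Small intestinal RNA of 3 littermates, labelled wildtype, and of 3 Cdr1as-/- mice, labelled cdr1as knockout, was hybridised to 6 one-colour arrays, 1 for each mouse. The methods describe a C57BL/6J background and a deletion made with CRISPR/Cas9 and a pair of guide RNAs placed before the Cdr1as splice sites. The methods describe mice kept without food, but with water, before experiments, and name no other treatment of the mice on the arrays. Their ages are not given in the sources used here, and whether the Cdr1as-/- mice descend from 1 founder is not given either. The arrays carry no identified probe for Cdr1as, so that the deletion could not be checked in these data.

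A microRNA binds messenger RNAs mainly through its seed, bases 2 to 8 from the 5′ end, and lowers the stability and translation of those it pairs with. miR-34a and the miR-34b/c pair are transcribed directly under the tumour suppressor p53 after DNA damage, and their targets include messenger RNAs for cell cycle and survival proteins, among them cyclin-dependent kinases, Myc, and Bcl2. miR-34a is found in many tissues, whereas miR-34b/c and miR-449 are best known from multiciliated cells of the airway, oviduct, and brain ventricles, and from the testis. The intestinal mucosa is not known for multiciliated cells. The miR-449 genes lie in Cdc20b and are under E2F1 control. Each hairpin gives a 5p strand and a 3p strand, and only 1 of them usually enters the silencing complex in quantity.

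The sequences, as deposited, show what joins the family and what splits it. The seed is in capitals.
mmu-miR-34a-5p: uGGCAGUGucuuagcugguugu
mmu-miR-34b-5p: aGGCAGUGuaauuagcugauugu
mmu-miR-34c-5p: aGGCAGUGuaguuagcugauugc
mmu-miR-449a-5p: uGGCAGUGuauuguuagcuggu
mmu-miR-449b: aGGCAGUGuuguuagcuggc
mmu-miR-449c-5p: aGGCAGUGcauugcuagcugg
mmu-miR-34b-3p: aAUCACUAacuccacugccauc
mmu-miR-34c-3p: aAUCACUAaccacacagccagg
The first 6 share 1 seed, and no other miRNA of the 1831 has it. The other 2 are the 3p strands of the miR-34b/c hairpins and share a different seed, again with no other miRNA of the table. Outside the seed the 6 seed sharers differ by 2 to 7 single-base changes, insertions, or deletions. The closest pair is miR-34b-5p and miR-34c-5p, at 2, while miR-34a-5p lies 4 from miR-34b-5p and 7 from both miR-449b and miR-449c-5p. Cross-hybridisation between such close sequences was not measured, so the signals of miR-34b-5p and miR-34c-5p are uncertain in how they split. The RefSeq mature sequences used here had entries for 6 of the 8, all 6 identical to the deposited sequences.

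The family comes from 3 places in the genome (GRCm38.p6, RefSeq). Mir34a lies at chr4:150068454-150068555 on the plus strand, within the span of no other gene. Mir34c at chr9:51103034-51103110 and Mir34b at chr9:51103562-51103645 lie on the minus strand, 451 bases apart, within the spans of Hoatz and Btg4. Mir449c at chr13:113035983-113036091, Mir449b at chr13:113037419-113037498, and Mir449a at chr13:113037534-113037624 all lie within Cdc20b. The table used for these places gives gene spans and not exons. The 2 strands of the Mir34c hairpin had differences of opposite sign in the deposited values over 6 arrays, each smaller than its standard error. The hairpin is shown for that reason, with miR-34c-5p and then miR-34c-3p in capitals.
Mir34c: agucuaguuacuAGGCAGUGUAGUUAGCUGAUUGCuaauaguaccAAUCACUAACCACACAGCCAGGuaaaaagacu

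The arrays differed before any comparison of genotypes. Littermate 3 had a median background-subtracted signal of 236 over the miRNA probes, Cdr1as-/- mouse 1 had 29.2, and the other 4 arrays had 8.75 to 14.1. Of the miRNA probes, the share that the scanner software marks as well above background ran from 41.5% in Cdr1as-/- mouse 2 to 100% in littermate 3. Littermate 3 stood apart, so each difference is given over all 6 arrays and again without it. Summed deposited intensities of 9 epithelial marker miRNAs, such as miR-192, miR-200, and miR-375, were 135490 to 147374 on 5 arrays and 67469 in littermate 3. The sums of 6 immune markers were 4172 to 7447 on those 5 arrays and 607 in littermate 3, and those of 6 smooth muscle and mesenchyme markers were 1118 to 5983 and 177. The brightest markers, miR-194-5p and miR-215-5p, weigh most in the epithelial sum. Their log2 values were 15.76 and 15.48 in littermate 1 and 15.18 and 14.54 in littermate 3. Those of miR-192-5p, miR-141-3p, and miR-200c-3p were 13.98, 12.49, and 12.27 in littermate 1. In littermate 3 these were 11.64, 9.73, and 8.56. No marker of these 3 lists was at the lowest deposited value of an array. The 3 littermates and Cdr1as-/- mouse 1 were on 1 slide, and Cdr1as-/- mice 2 and 3 on another. The part of these differences in the results on the family was not tested. The number of arrays limits the precision. Fewer cells of a type cannot be told apart from less RNA per cell, or in littermate 3 from the different signal of its array.

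miR-34a-5p, the member with the best known p53 response, varied more between mice than any other member. Its deposited value, on the log2 scale as all values that follow unless said otherwise, was 7.36 in littermate 1, 7.03 in littermate 2, and 4.14 in littermate 3. In Cdr1as-/- mice 1, 2, and 3 it was 5.58, 7.12, and 5.92. Littermate 3 was therefore lowest of the 6, Cdr1as-/- mice 1 and 3 lay between it and the other littermates, and Cdr1as-/- mouse 2 lay between littermates 1 and 2. The littermates had a mean of 6.18 ± 1.77 (SD, n = 3), and the Cdr1as-/- mice a mean of 6.21 ± 0.81 (SD, n = 3). The difference, Cdr1as-/- minus littermates, was 0.03 with a standard error of 0.92 (limma, adjusted p = 0.99997 over 1831 miRNAs). Without littermate 3 it was -0.99 with a standard error of 0.42, a 1.98-fold lower mean in Cdr1as-/- mice, with an adjusted p of 0.364 in limma (unadjusted p = 0.0430). By exact two-sided permutation p was 1.0 with 6 arrays and 0.4 without littermate 3, where the smallest possible values are 0.1 and 0.2. Without Cdr1as-/- mouse 2, the highest of its group, the difference was -0.43, and leaving out any of the other 4 mice gave 0.17 to 0.62. The direction thus turned with single mice, and the groups overlapped with littermate 3 and without it. On the slide that held both genotypes, the difference of Cdr1as-/- mouse 1 from the mean of the 3 littermates was -0.60, and from that of littermates 1 and 2 it was -1.62.

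**Figure D1:**
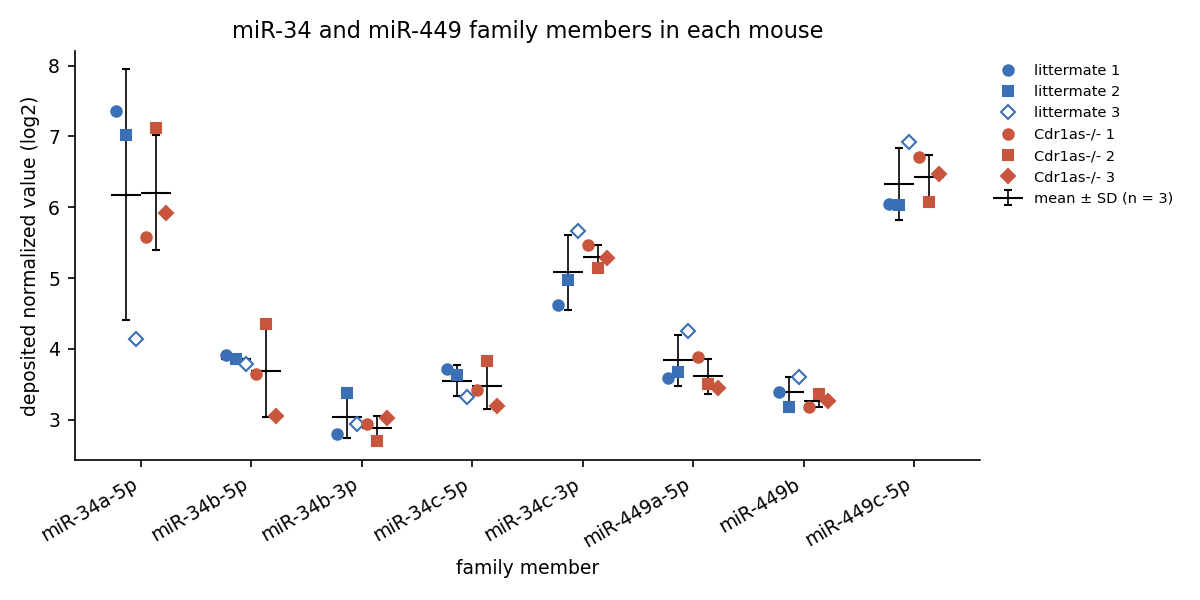
Deposited normalized log2 value (y axis) of the 8 family members (x axis) in each mouse, littermates in blue and Cdr1as-/- mice in red, with the open diamond for littermate 3 and black bars for the mean ± SD of 3 mice. The miR-34a-5p value of littermate 3, 4.14, lies apart from those of littermates 1 and 2, 7.36 and 7.03, while the other members span at most 1.29 over the 6 mice.

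The range of miR-34a-5p over the 6 mice, 3.22, was larger than that of 89.6% of all miRNAs, and its range without littermate 3, 1.79, was larger than that of 94.7%. Its mean was also higher than that of 74.9% of all miRNAs, and ranges were not compared among miRNAs of like level. The ranges of the 7 other members were 0.43 to 1.29 over 6 mice, beside a median of 1.07 for all miRNAs. miR-34a-5p was thus the most variable member also among the 5 arrays that exclude littermate 3. However, miR-34b-5p, miR-34b-3p, miR-34c-5p, miR-449a-5p, and miR-449b had at most 1 probe well above background on all 6 arrays. The part of that in their smaller ranges was not tested. miR-449c-5p, with all 5 probes above background on all arrays, had a range of 0.89 over 6 mice.

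The strands of the miR-34b/c pair had differences of both signs. They were smaller in size than that of miR-34a-5p without littermate 3, but not over 6 arrays. For miR-34b-5p, littermates 1, 2, and 3 had 3.92, 3.86, and 3.78, against 3.64, 4.35, and 3.06 for Cdr1as-/- mice 1, 2, and 3. The highest and the lowest of these 6 were both Cdr1as-/- mice. For miR-34c-5p, the littermates had 3.72, 3.63, and 3.31 against 3.43, 3.83, and 3.19 for Cdr1as-/- mice, again with Cdr1as-/- mice at both ends. For miR-34b-3p, the values were 2.80, 3.38, and 2.95 against 2.94, 2.69, and 3.03, and the groups overlapped. These 3 strands gave differences of -0.17, -0.07, and -0.15 over 6 arrays and -0.20, -0.19, and -0.20 without littermate 3, in each case smaller than the standard error, which was 0.26 to 0.36. Their signs also turned with single mice, to 0.14 for miR-34b-5p and 0.075 for miR-34c-5p without Cdr1as-/- mouse 3, to 0.010 for miR-34c-5p without littermate 1, and to 0.012 for miR-34b-3p without littermate 2.

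miR-34c-3p, the other strand of the miR-34c hairpin shown above, had a difference of the opposite sign. Littermates 1, 2, and 3 had 4.62, 4.97, and 5.66, against 5.47, 5.14, and 5.28 for Cdr1as-/- mice 1, 2, and 3. Littermate 3 was the highest of the 6, and all 3 Cdr1as-/- mice were above littermates 1 and 2. The difference was 0.21 with a standard error of 0.33 over 6 arrays and 0.50 with a standard error of 0.25 without littermate 3 (limma, adjusted p = 0.388). With the scanner signal of its brightest probe, scaled to the 75th percentile of each array, these differences were -0.03 and 0.41. Without littermate 1 the deposited values gave -0.02. By exact permutation without littermate 3, p was 0.2, the smallest that 3 mice against 2 can give.

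Of the miR-449 cluster, miR-449c-5p resembled miR-34c-3p in its pattern. Littermates 1, 2, and 3 had 6.04, 6.03, and 6.92, against 6.71, 6.08, and 6.48 for Cdr1as-/- mice 1, 2, and 3. Littermate 3 was again the highest, and the 3 Cdr1as-/- mice lay above littermates 1 and 2, Cdr1as-/- mouse 2 only narrowly. The difference was 0.09 with a standard error of 0.34 over 6 arrays and 0.38 with a standard error of 0.26 without littermate 3 (limma, adjusted p = 0.433). With the 75th percentile scaling, again of the brightest probe, it was -0.03 and 0.34. Without littermate 1, littermate 2, or Cdr1as-/- mouse 1 the deposited values gave -0.05, -0.06, and -0.06. By exact permutation p was 0.8 and, without littermate 3, 0.2. For miR-449a-5p, the littermates had 3.59, 3.68, and 4.25 against 3.89, 3.50, and 3.45 for Cdr1as-/- mice, a difference of -0.23 over 6 arrays and -0.02 without littermate 3. For miR-449b, with 3.40, 3.18, and 3.60 against 3.18, 3.36, and 3.27, the differences were -0.12 and -0.01. The groups overlapped for both of these miRNAs. The table holds the opposite strand of 1 of these hairpins, miR-449a-3p, whose difference was -0.17 over 6 arrays and -0.28 without littermate 3 (limma, adjusted p = 0.99997 and 0.621).

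Across the family, 0 of the 8 members had an adjusted p below 0.05 in limma over 6 arrays, where 0% of all miRNAs did, and 0 had an unadjusted p below 0.05, where 0.328% did. The methods' t-test also gave 0 members at an unadjusted p below 0.05, beside 1.15% of all miRNAs. Without littermate 3, 0 of 8 passed after adjustment, where again 0% of all miRNAs passed, and 1 of 8, miR-34a-5p, had an unadjusted p below 0.05. That compares with 13.2% of all miRNAs at this p in either direction and 10.5% that were lower in Cdr1as-/- mice. For 0 of 8 members were the groups of 3 separated over 6 arrays, where 0.437% of all miRNAs were higher in all Cdr1as-/- mice and 2.73% lower. Without littermate 3, miR-34c-3p and miR-449c-5p, 2 of 8, were higher in all Cdr1as-/- mice, beside 20.3% of all miRNAs, and 0 of 8 were lower in all of them, beside 19.9%. These shares lie near the background. The median difference of the 8 members was -0.10 over 6 arrays and -0.11 without littermate 3, beside -0.07 and 0.09 for all miRNAs.

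**Figure D2:**
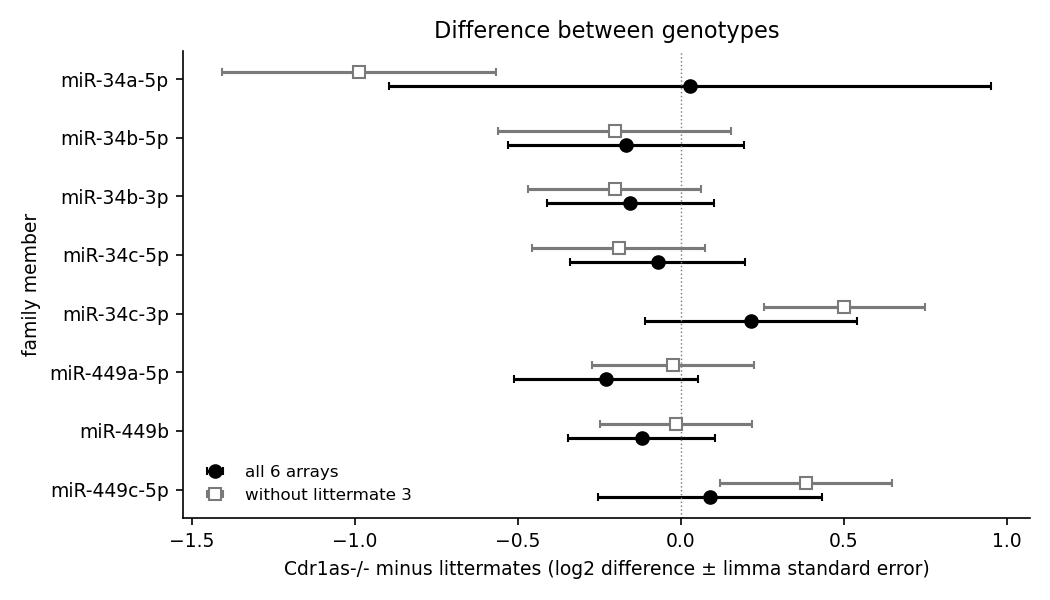
Difference between Cdr1as-/- mice and littermates on the log2 scale (x axis, with the limma standard error) for each of the 8 members (y axis), over all 6 arrays in black and without littermate 3 in grey. Leaving out littermate 3 moved miR-34a-5p from 0.03 to -0.99 and miR-34c-3p from 0.21 to 0.50, while the 3 other miR-34b/c strands stayed between -0.20 and -0.07.

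To compare miR-34a with its relatives without setting the level of 1 probe against another, the difference between miR-34a-5p and each of the 7 other members was taken within each array and then compared between genotypes. Over 6 arrays these comparisons gave -0.19 to 0.26, lower in Cdr1as-/- mice for 2 of the 7 and higher for 5, and the exact two-sided p was 0.9 to 1.0. Without littermate 3, all 7 were lower in Cdr1as-/- mice, by -0.79 against miR-34b-5p to -1.49 against miR-34c-3p. The 7 share the miR-34a-5p values, and their signs are therefore not independent. The exact p was 0.2 for miR-34b-5p, miR-34c-5p, miR-34c-3p, and miR-449b and 0.4 for miR-34b-3p, miR-449a-5p, and miR-449c-5p, or 0.35 and 0.4 after Benjamini-Hochberg adjustment over the 7. Without Cdr1as-/- mouse 2, the comparisons with miR-34b-3p, miR-34c-5p, miR-449a-5p, and miR-449b also turned below 0, to -0.37 to -0.18. Those with miR-34c-3p and miR-449c-5p turned to 0.22 to 0.68 without littermate 1, littermate 2, or Cdr1as-/- mouse 1, and that with miR-449c-5p to 0.11 without Cdr1as-/- mouse 3.

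The comparison with miR-34c-3p shows how the mice fell. For miR-34a-5p minus miR-34c-3p, littermates 1, 2, and 3 had 2.74, 2.05, and -1.52, against 0.10, 1.97, and 0.64 for Cdr1as-/- mice 1, 2, and 3. Littermate 3 was lowest, and the 3 Cdr1as-/- mice lay below littermates 1 and 2, Cdr1as-/- mouse 2 by a small margin. With miR-449c-5p subtracted, the littermates had 1.32, 0.99, and -2.78 against -1.14, 1.04, and -0.55 for Cdr1as-/- mice, so that Cdr1as-/- mouse 2 fell between littermates 1 and 2. With miR-34b-5p subtracted, the littermates had 3.45, 3.17, and 0.36 against 1.94, 2.77, and 2.86 for Cdr1as-/- mice. In each of the 7 comparisons littermate 3 had the lowest value and Cdr1as-/- mouse 1 the next lowest, the 2 arrays with the highest median signal. Whether that signal has a part in the difference was not tested.

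**Figure D3:**
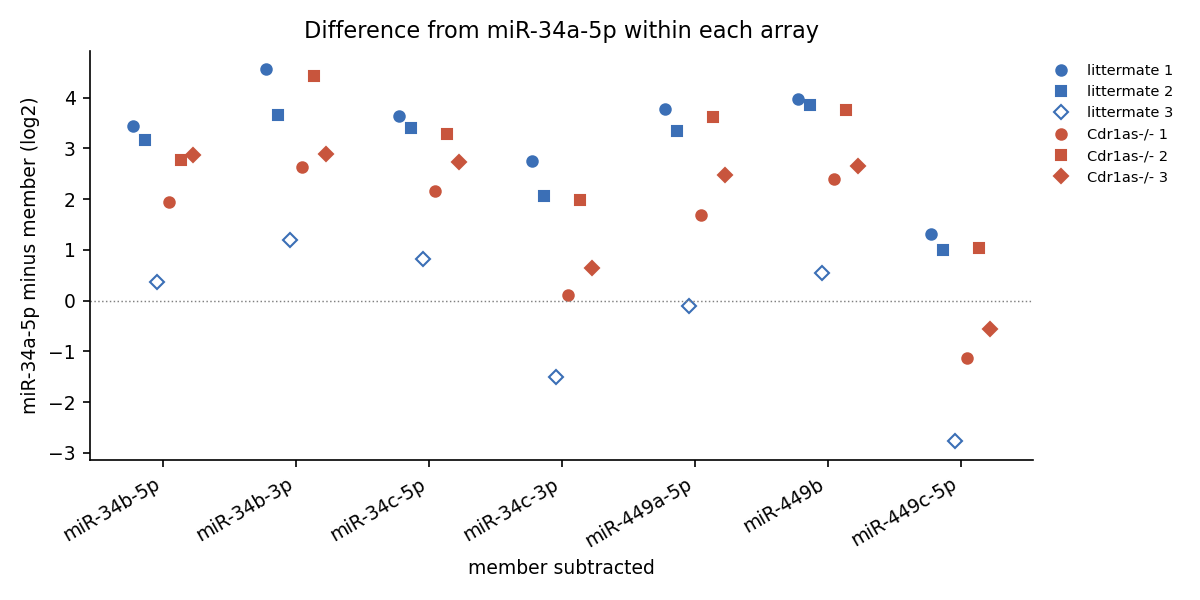
Difference on the log2 scale between miR-34a-5p and each of the 7 other members within each array (y axis), by the member subtracted (x axis), with littermates in blue and Cdr1as-/- mice in red. Littermate 3 (open diamond) lies below the 5 other mice in every column, at -1.52 for miR-34c-3p and -2.78 for miR-449c-5p, and Cdr1as-/- mouse 2 lies near littermates 1 and 2.

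The probes behind these values were not equally well measured. Each member was read by 5 different probes on each array, except for miR-34b-3p with 4. All 5 probes of miR-34c-3p and all 5 of miR-449c-5p were well above background on all 6 arrays, as were 3 of the 5 for miR-34a-5p and 1 of 5 for miR-34b-5p. The 4 remaining members had 0 such probes. In Cdr1as-/- mouse 2, no probe of miR-34b-3p, miR-34c-5p, miR-449a-5p, or miR-449b was well above background, and in littermate 1 no probe of miR-34b-3p was. Their differences therefore compare signals near the background of the arrays. On 4 of the 6 arrays, 219 to 1431 miRNA probes share the lowest deposited value of the array, against 1 probe in littermate 3 and 1 in Cdr1as-/- mouse 1. All 4 miR-34b-3p probes were at it in littermate 1 and in Cdr1as-/- mouse 2, and 4 of the 5 miR-34b-5p probes in Cdr1as-/- mouse 3. A filter that asks for a probe well above background on all arrays of either genotype would keep 7 of the 8 members, leaving out miR-34b-3p.

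The signals before scaling ordered the mice differently from the deposited values for miR-34a-5p. The background-subtracted signal of its brightest probe was 130 in littermate 1, 117 in littermate 2, and 219 in littermate 3, against 167, 148, and 70.1 for Cdr1as-/- mice 1, 2, and 3. Before scaling, littermate 3 was therefore the highest of the 6 and Cdr1as-/- mouse 3 the lowest. In littermate 3 the array's median over miRNA probes was 236, so that all 5 miR-34a-5p probes, at 119 to 219, were below it, whereas the brightest probe was above the median on each of the 5 other arrays. For miR-449c-5p the 5 probes gave 1370 to 1650 in littermate 3, 175 to 219 in Cdr1as-/- mouse 1, and 22.8 to 55.9 on the other 4 arrays. Those of miR-34c-3p gave 554 to 718, 61.4 to 70.3, and 7.63 to 25.1. Before scaling, littermate 3 and then Cdr1as-/- mouse 1 had the highest signal for every probe of these 3 miRNAs, as they had the highest array medians. The spread differed in size, the brightest miR-34a-5p probe running from 70.1 to 219.

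**Figure D4:**
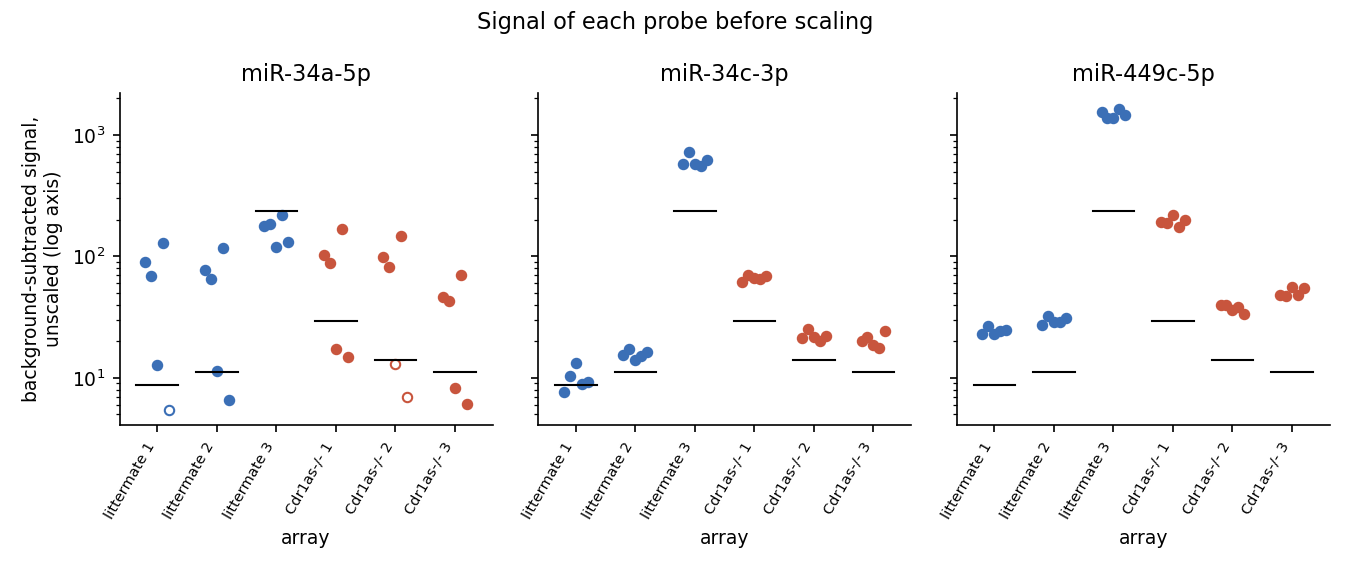
Background-subtracted signal before scaling (y axis, log axis) of the 5 probes of miR-34a-5p, miR-34c-3p, and miR-449c-5p on each array (x axis), filled where the probe was well above background, with a black line at the median of all miRNA probes of that array. In littermate 3 the miR-34a-5p probes, 119 to 219, lie under the median of 236, while those of miR-34c-3p and miR-449c-5p lie above it at 554 to 718 and 1370 to 1650.

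Without littermate 3, the probes of miR-34a-5p, miR-34b-3p, miR-34c-3p, and miR-449c-5p each gave 1 sign, and those of the other 4 members gave both. Without littermate 3, all 5 miR-34a-5p probes had a lower mean in Cdr1as-/- mice, by -1.10 to -0.03, and the value nearest 0 was that of the dimmest probe, which was well above background on 4 of 6 arrays. The 3 miR-34a-5p probes measured on all 6 arrays gave -1.10, -0.98, and -1.005, and over all 6 arrays 0.08, 0.08, and 0.25. All 5 probes of miR-34c-3p and all 5 of miR-449c-5p had a higher mean without littermate 3, by 0.28 to 0.67 and by 0.22 to 0.52. The probes ran from -0.52 to 0.72 for miR-34b-5p, from -0.76 to 0.39 for miR-34c-5p, from -0.29 to 0.37 for miR-449a-5p, and from -0.73 to 0.90 for miR-449b. Over all 6 arrays those of miR-34a-5p also gave both signs, from -0.42 to 0.25. The probes of 1 miRNA were read from the same RNA and are not replicates.

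A list of 16 other miRNAs linked to p53, all 16 in the table, was described beside the family. It holds miRNAs that p53 induces, such as miR-192, miR-194, miR-215, and miR-145, those whose processing it promotes, such as miR-16 and miR-143, and those that act on p53 or its regulators, such as miR-125b, miR-504, and miR-29. Over 6 arrays 15 had a difference above 0 and 1 below, where 716 of all 1831 miRNAs were above 0. The median of the list was 0.85, beside -0.07 for all miRNAs. The medians of the marker lists that share miRNAs with it were 0.84 for epithelium and 0.54 for smooth muscle and mesenchyme. That of the immune markers was 0.59, and that of the 3 erythroid markers was -0.19. Without littermate 3, 3 were above 0 and 13 below, where 786 of all 1831 miRNAs were below 0. The median of the list was then -0.21, beside 0.09 for all miRNAs. Those of the epithelial, mesenchymal, immune, and erythroid markers were -0.16, 0.06, -0.32, and -0.81. The part of these cell types in the list's values was not tested. In limma, 0 of the 16 passed the adjusted threshold in either set, where 0% of all miRNAs did. At an unadjusted p below 0.05 it was also 0 of 16 in each, beside 0.328% of all miRNAs over 6 arrays and 13.2% without littermate 3. The sign of the list therefore also turned with littermate 3, and miR-34a-5p had a difference below the median of the list in both sets.

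The 4 miRNAs of this list with the smallest limma p over 6 arrays were miR-145a-5p, miR-143-3p, miR-29b-3p, and miR-141-3p. miR-145a-5p, a smooth muscle and mesenchyme miRNA, had 9.39, 9.18, and 4.64 for littermates 1, 2, and 3 against 10.48, 10.38, and 8.23 for Cdr1as-/- mice 1, 2, and 3. Its gene cluster partner miR-143-3p had 10.58, 10.49, and 5.76 against 12.06, 11.55, and 9.32. For both, Cdr1as-/- mouse 3 was below littermates 1 and 2, and the differences without littermate 3 were 0.41 and 0.44 (limma, adjusted p = 0.696 and 0.707). miR-29b-3p, which targets collagen messenger RNAs, had 11.50, 11.42, and 7.33 for littermates against 11.06, 11.84, and 11.06 for Cdr1as-/- mice. The epithelial miR-141-3p had 12.49, 12.67, and 9.73 against 12.23, 12.53, and 12.64. In all 4, littermate 3 was the lowest of the 6 mice, as it was for miR-34a-5p. The same held for the other miRNAs of the list except miR-504-5p, and for the summed intensities of the marker lists.

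The profiles nearest to those of the members were sought over the 6 arrays among all miRNAs outside the family, by the root mean square difference after each miRNA's mean was subtracted. For miR-34a-5p these were miR-362-3p at 0.11, miR-340-5p at 0.15, and miR-7b-5p at 0.17, beside a median of 1.26 over all miRNAs outside the family. For miR-362-3p, littermates 1, 2, and 3 had 6.84, 6.76, and 3.85, against 5.21, 6.59, and 5.60 for Cdr1as-/- mice. miR-7b-5p, of the miR-7 family that Cdr1as binds, had 7.005, 6.97, and 3.90 against 5.31, 6.98, and 6.08. Their differences without littermate 3 were -1.001 and -0.87, and that of miR-340-5p was -0.84. The 7 other family members lay at 0.96 to 1.47 from miR-34a-5p, on both sides of the median of 1.26.

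The nearest profiles of miR-34c-5p were miR-12187-3p at 0.06, miR-450b-3p at 0.07, and miR-133b-5p at 0.08, and miR-34b-5p lay at 0.21. Those of miR-449a-5p were miR-216c-5p at 0.03, miR-9b-3p at 0.07, and miR-7224-5p at 0.08, with miR-449c-5p at 0.23 and miR-449b at 0.23. The median over all miRNAs was 0.48 for miR-34c-5p and 0.37 for miR-449a-5p. Neither miR-34c-5p nor miR-449a-5p had a probe well above background on all 6 arrays. miR-12187-3p had 2.70 in Cdr1as-/- mouse 3, the lowest deposited value of that array. These likenesses are descriptions over 6 arrays, of 2 members with signals near the background.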

How the data were processed

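Small RNA of 6 mice was labelled with Cy3 and read on 1-colour arrays. The scanner intensity of each spot, deposited by the authors, is the background-subtracted signal of Agilent Feature Extraction 11.0.1.1 (per the labels) and had not been normalized between arrays. Its score of whether a probe is well above background is a flag of 0 or 1. The methods name a miRCURY LNA array, which differs from the scanner software named in the labels. The normalized log2 values deposited by the authors cover 1831 miRNAs. Their normalization and the genome build of the probes are not given in the sources used here. The quartiles of the normalized probe values were nearly equal on all arrays. The authors' table also holds fold changes, p-values, and q-values of their own comparison, which were not used.

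Each deposited miRNA value was reached, within 0.0002, by averaging the unlogged values of 1 to 5 probes and taking log2, which assigned 8437 probes to miRNAs. Groups and replicate numbers were taken from the sample labels. The members' values were compared in R 4.3.3 by lmFit and eBayes of limma 3.58.1, adjusted by Benjamini-Hochberg over all 1831 miRNAs, with no filter on dim miRNAs. Single values were also compared by exact two-sided permutation over mice. Sequences, places, and summaries were made in Python 3.11.15 (SciPy 1.17.1, pandas 2.3.3, NumPy 2.4.6, matplotlib 3.10.9).

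The members and the lists were chosen with earlier results of these data known. Named are all 8 members, the opposite strands of their hairpins in the table, any miRNA with the same seed, the 4 p53-linked miRNAs with the smallest limma p, and the 3 nearest profiles of miR-34a-5p, miR-34c-5p, and miR-449a-5p. For 3 erythroid markers the summed deposited intensity was 109 to 1080 in littermates and 195 to 290 in Cdr1as-/- mice.

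The alternatives were scanner signals scaled to the 75th percentile of each array (taken over 5555 probes that were well above background throughout, or over all 14192 small RNA probes) or by quantiles, normexp with an offset of 50, a floor, the brightest deposited probe, a filter on dim miRNAs, the methods' unpaired t-test, a trend on intensity, a block for the slide or for the replicate number, and each mouse left out. Each alternative from the scanner signal, with normexp and the floor among them, used only the brightest probe of each miRNA. These alternatives therefore changed the probes as well as the scaling. With the brightest deposited probe the miR-34a-5p difference was 0.25, and with the 75th percentile 0.23. For miR-34c-3p these were 0.18 and -0.03. Array weights were added after seeing the data. With the slide as a block the difference rests on Cdr1as-/- mouse 1 against the 3 littermates of its slide.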

Additional observations from a re-analysis of the deposited data

How the results depend on the processing

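The number of members with an adjusted p below 0.05 stayed at 0 under all 19 alternatives. The number with an unadjusted p below 0.05 was 0 to 1 with each mouse left out, 1 (miR-34b-3p, beside 9.67% of all miRNAs) with the scanner signal scaled to the 75th percentile and littermate 3 left out, and 2 (miR-34a-5p and miR-449c-5p, beside 29.1% of all miRNAs) with array weights, an estimate that stopped short of its tolerance and gave littermate 3 a weight of 0.0850. The miR-34a-5p difference of 0.03 turned to -0.97 with the scanner signal and littermate 3 left out, -0.60 with the slide as a block, and -1.06 with array weights (adjusted p = 0.114, the lowest of any member under any alternative, against up to 0.99997). With each mouse left out it ran from -0.99 (littermate 3) to 0.62 (littermate 1), and it was -0.43 without Cdr1as-/- mouse 2. The cause was not tested. Under normexp the differences turned to 0.073 for miR-34b-5p, 0.044 for miR-34c-5p, 0.16 for miR-449a-5p, and 0.18 for miR-449b. With the floor they turned to 0.22 for miR-34b-3p, 0.17 for miR-34c-5p, -0.029 for miR-34c-3p, and -0.030 for miR-449c-5p, the last 2 values being the same with the 75th percentile and no floor. That of miR-449b also turned to 0.051 with the 75th percentile, 0.069 with littermate 3 left out as well, 0.16 with the percentile over all probes, 0.29 with quantiles, and 0.034 with array weights, and that of miR-449a-5p to 0.050 with the slide as a block. With each mouse left out the differences ran from -0.50 to 0.14 for miR-34b-5p, -0.27 to 0.012 for miR-34b-3p, -0.25 to 0.075 for miR-34c-5p, -0.018 to 0.50 for miR-34c-3p, -0.37 to -0.02 for miR-449a-5p, -0.23 to -0.01 for miR-449b, and -0.061 to 0.38 for miR-449c-5p. The differences from miR-34a-5p within arrays ran from -0.79 to 0.76 for miR-34b-5p, -0.79 to 0.89 for miR-34b-3p, -0.80 to 0.61 for miR-34c-5p, -1.49 to 0.64 for miR-34c-3p, -0.96 to 0.98 for miR-449a-5p, -0.97 to 0.74 for miR-449b, and -1.37 to 0.68 for miR-449c-5p, each lowest without littermate 3. With the 75th percentile those for miR-34c-3p and miR-449c-5p turned to 0.26 and 0.26. With each mouse left out, the list medians ran from -0.21 to 1.39 for the p53-linked list, -0.16 to 1.36 for epithelial, -0.32 to 1.23 for immune, 0.06 to 1.07 for mesenchymal, and -0.81 to 0.49 for erythroid markers. With the 75th percentile and littermate 3 left out, they were -0.90 for the p53-linked list and -0.98 for epithelial markers. The 75th percentile moved the median of all miRNAs from -0.07 to -0.19.

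With the replicate number as a block, the miR-34a-5p difference was 0.03 with a standard error of 0.73, and 0 members had an unadjusted p below 0.05. The numbers share no stated litter or day, and same-numbered mice deviated from their group means with correlations of -0.76, 0.56, and -0.22, so they were not treated as pairs. Littermate 3 and Cdr1as-/- mouse 1 deviated together (0.81). The filter on dim miRNAs gave no value for miR-34b-3p. Signal over background limits 5 members: miR-34b-5p, miR-34b-3p, miR-34c-5p, miR-449a-5p, and miR-449b had at most 1 probe well above background on all 6 arrays.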
